A study of Mus musculus with 90 samples.

Results

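The mitosis genes described here are 43 genes that act between the end of DNA replication and the separation of daughter cells. They were listed by symbol. Each was read from its brightest probe set, the one with the highest mean over 90 arrays, among those annotated to a single symbol. By this rule 41 of the 43 were measured, out of 17097 genes in all, and Ccnb1 and Nuf2 were left out because no probe set was annotated to them alone. Whole lungs of adult male C57BL/6 mice were profiled on Affymetrix arrays, 1 array per animal, in 18 groups of 5 animals. The strains were wild type (WT), a Cyp2f2 knockout (KO, CYP2F2(-/-)), and a transgenic strain (TG), which the labels give as CYP2F2(-/-),2F1,SA13,2B6 and call humanized for CYP2F1. TG mice therefore carry the knockout as well, and what drives expression of their human genes is not stated in the labels used here. Mice of each strain breathed 0 ppm (air), 40 ppm or 120 ppm styrene for 6 hours a day on 5 days of the week, for 1 or 4 weeks, and lungs were collected the morning after the last exposure. The question is whether inhaled styrene changes these genes, and whether that depends on dose, time and Cyp2f2, a cytochrome P450 of airway club cells that oxidises styrene.

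Entry into mitosis is driven by Cdk1 bound to cyclins, and further kinases of the Aurora, Polo and Nek families separate the centrosomes and build the spindle. Kinetochores tie chromosomes to the spindle, and the checkpoint proteins Mad2l1, Bub1b and Ttk hold back Cdc20 until every chromosome is attached. Cdc20 and Ube2c then work with the anaphase-promoting complex (APC/C) to destroy cyclin B and securin, which frees the separase Espl1 to cut the chromosomes apart. Most of these genes are transcribed late in the cell cycle, and in an adult lung few cells divide at any time, so their mRNA serves as a common readout of dividing cells.

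Lung identity markers were bright in every array: Sftpc lay between 13.65 and 13.94 log2 and Scgb1a1 between 13.51 and 13.93, while Nkx2-1 was dim on its probe set, between 3.53 and 4.43. Array medians lay between 4.42 and 4.86. Of the 41 members, 18 had a mean above 5.05, the 40th percentile of all genes, and the other 23 were dim over the arrays as a whole. Birc5 and Ect2 are among the 18 only through the exposed WT groups at 1 week: over the other 80 arrays their means were 4.87 and 4.88. Limma gave 4 arrays a weight below 0.25. The lowest was that of animal 1 of KO at 40 ppm and 4 weeks (0.0897). At 1 week they were animal 3 of the WT group at 120 ppm (0.135), which also had the lowest array median, and unexposed animals. These were animal 5 of TG (0.155) and animal 3 of KO (0.211). Cyp2f2 was at 13.26 ± 0.04 in WT, 11.84 ± 0.22 in KO and 11.92 ± 0.17 in TG controls at 1 week (log2, SD, n = 5). All values are log2 expression values from the deposited table, and a change is a difference of log2 group means with the standard error (SE) of a limma fit to all 90 arrays. A gene is said to have risen or fallen where its p-value, adjusted over all 17097 genes by the Benjamini-Hochberg method, was under 0.05. In whole lung, more cells of a dividing type and more RNA per cell cannot be told apart.

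After 1 week of styrene the mitosis genes were higher in WT lungs at both doses. In WT lungs at 40 ppm, 35 of the 41 members rose (85.4%, against 3.82% of all genes that rose), and 28 differed by at least 2-fold. At 120 ppm 38 rose (92.7%, against 3.94% of all genes), again with 28 at 2-fold or more. The median difference over the members was 1.26 at 40 ppm and 1.42 at 120 ppm on the log2 scale, or 2.39-fold and 2.67-fold, where the medians over all genes were 0.03 and 0.003. All 41 members had a positive difference at each dose, and 0 fell. The largest were Cdc20 at 40 ppm (4.85-fold, log2 difference 2.28, SE 0.30) and Pbk at 120 ppm (5.28-fold, 2.40, SE 0.25). The 40 and 120 ppm groups were compared with the same 5 control animals, so these counts are not independent of each other.

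The mean of the 41 members was taken in each animal, relative to each gene's own mean over the 90 arrays. In WT mice at 1 week it was -0.32, -0.37, -0.01, 0.04 and -0.24 in control animals 1 to 5, and 0.86, 0.90, 1.23, 0.92 and 1.33 in the 40 ppm animals. At 120 ppm it was 1.51, 1.36, 0.05, 0.65 and 2.39. All 5 animals at 40 ppm, and 4 of 5 at 120 ppm, lay above each of the 80 animals outside these groups, the highest of which was a KO animal at 0.53. Animal 3 at 120 ppm lay just above the highest WT control (0.05 against 0.04). The means of these groups (SD, n = 5) were -0.18 ± 0.18 without styrene, then 1.05 ± 0.22 at the lower dose and 1.19 ± 0.89 at the higher.

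**Figure D1:**
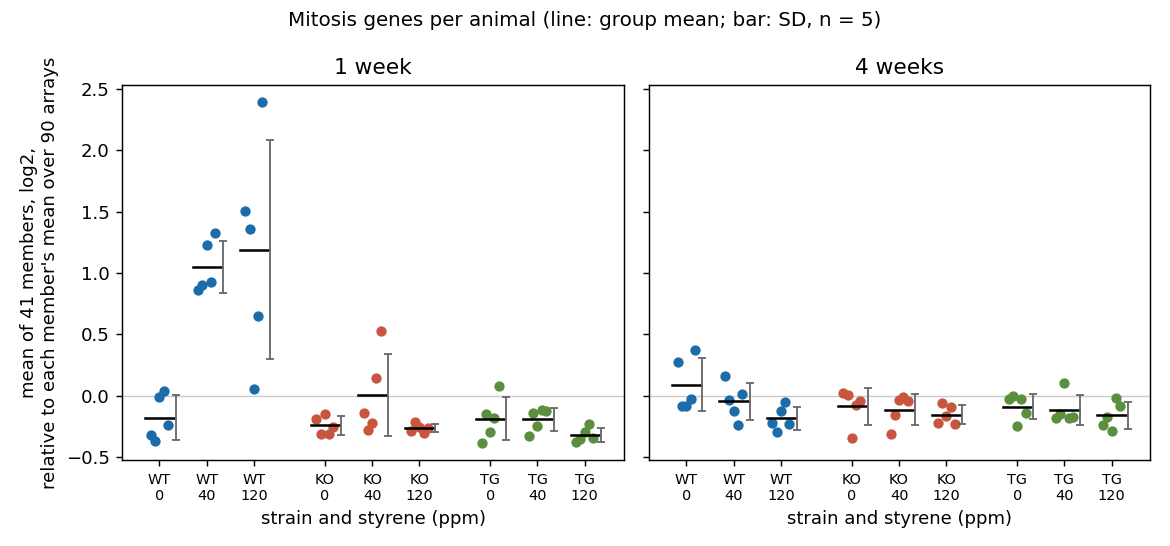
Mean of the 41 mitosis genes in each of 90 animals (points, log2, relative to each gene's mean over all arrays) by strain, styrene dose in ppm and time, with the group mean as a line and the SD over 5 animals as a bar. WT animals at 1 week sit between 0.86 and 1.33 at 40 ppm and between 0.05 and 2.39 at 120 ppm, and no other group mean is above 0.09.

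The 120 ppm group was the most uneven of the 18. Its SD, taken gene by gene, had a median of 0.93 over the members, against 0.29 in WT controls at 1 week, 0.31 at 40 ppm, and 0.24 over all genes in the 120 ppm group. Animal 5 was the highest of its group in 40 of the 41 members and animal 3 the lowest in 34. Because limma estimates 1 spread per gene from all 18 groups, its SE is too small for this group. Fitted on only these 10 arrays, 1 member passed at 120 ppm, and 36 of all genes did (0.211%). With animals 3 and 5 both left out, a choice made after the values were seen, 36 members rose in the fit to the remaining arrays, where 4.24% of all genes passed. Without animal 5 alone 33 rose, with the share of all genes not given here. The differences of Ttk (0.48), Espl1 (0.60), Cenpe (0.30), Kif11 (0.38) and Hmmr (0.27) were then smaller by over 1.5 times. Of these 5 genes Espl1 still passed (adjusted p = 0.023), and the others did not (adjusted p = 0.076 to 0.31). Groups of 5 that do not overlap need no estimate of the spread: at 40 ppm all 5 exposed animals lay above all 5 controls in 35 members (85.4%, against 5.66% of all genes), and at 120 ppm in 13 members (31.7%, against 1.33%).

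The start regions of 4 genes that rose are printed here as examples, because many members of this set share sequence elements there. Of the 41 measured members, 34 matched a RefSeq promoter window of GRCm38.p6, which runs from 250 bases before the annotated start to 50 after it. Capitals mark each match, on either strand, to the CCAAT box, which NF-Y binds, or to the element known as the CHR, which the DREAM and MuvB complexes bind. The CHR was searched in the form TTTGAA and in a pair of variants, TTTAAA among them and the form with a central CG, spelled TTCGAA. Each window is written in the direction of transcription. That of Cdk1 is chr10:69352863-69353162 (minus strand), of Cdc20 chr4:118437294-118437593 (minus strand), of Ube2c chr2:164769679-164769978 (plus strand) and of Top2a chr11:99024140-99024439 (minus strand).
Cdk1: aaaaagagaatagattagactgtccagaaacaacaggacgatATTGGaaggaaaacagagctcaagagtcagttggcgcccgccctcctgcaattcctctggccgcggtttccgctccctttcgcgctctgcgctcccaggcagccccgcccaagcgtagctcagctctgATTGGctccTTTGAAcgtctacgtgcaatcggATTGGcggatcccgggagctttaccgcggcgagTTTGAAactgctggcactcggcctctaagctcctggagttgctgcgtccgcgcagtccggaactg
Cdc20: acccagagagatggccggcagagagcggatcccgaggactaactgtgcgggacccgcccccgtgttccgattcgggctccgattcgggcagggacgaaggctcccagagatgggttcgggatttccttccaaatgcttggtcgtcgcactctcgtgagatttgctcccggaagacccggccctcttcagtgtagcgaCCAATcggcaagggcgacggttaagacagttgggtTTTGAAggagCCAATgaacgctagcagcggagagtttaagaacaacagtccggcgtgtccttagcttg
Ube2c: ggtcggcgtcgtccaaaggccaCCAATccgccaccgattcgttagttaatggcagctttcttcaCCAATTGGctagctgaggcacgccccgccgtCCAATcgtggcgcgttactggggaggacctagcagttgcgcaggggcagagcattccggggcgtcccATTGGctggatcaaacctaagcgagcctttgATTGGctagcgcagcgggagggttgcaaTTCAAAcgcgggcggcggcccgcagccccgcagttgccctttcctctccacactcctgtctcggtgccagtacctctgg
Top2a: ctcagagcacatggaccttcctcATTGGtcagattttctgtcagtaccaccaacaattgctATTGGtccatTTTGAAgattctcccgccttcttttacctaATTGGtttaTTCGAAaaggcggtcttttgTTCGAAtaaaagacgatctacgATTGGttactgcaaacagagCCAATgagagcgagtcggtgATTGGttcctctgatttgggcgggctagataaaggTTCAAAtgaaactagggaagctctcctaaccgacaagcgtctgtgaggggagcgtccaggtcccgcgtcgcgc

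In the Cdk1 window TTTGAA began 71 and 15 bases before the annotated start, and CCAAT, as its complement ATTGG, 208, 80 and 48 bases before it. Cdc20 had TTTGAA 18 bases before the start, between CCAAT boxes at 53 and 8. Ube2c had TTCAAA, the complement of TTTGAA, 29 bases before the start and 6 CCAAT matches in either direction, of which the pair at 186 and 183 bases overlap. Top2a had 6 CCAAT matches too, with TTCAAA 23 bases before the start. Over the set, TTTGAA in either direction was found in 27 of 34 member windows (79.4%), against 20.2% of the windows of 27025 genes. TTTAAA, which is its own complement, was in 9 (26.5% against 14.9%), and TTCGAA in 3 (8.82% against 1.8%). CCAAT was in 26 (76.5% against 41.1%), at least 2 copies of it in 17 (50% against 13.3%), and TTTGAA together with CCAAT in 23 (67.6% against 7.97%). A match is a description of these letters and does not show that a factor binds there.

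Cdk1, the kinase that drives entry into mitosis, was at 5.75, 5.12, 6.16, 6.12 and 5.66 in WT controls at 1 week. It was at 7.60, 7.80, 8.34, 7.80 and 8.18 at 40 ppm and at 8.45, 8.53, 6.32, 7.62 and 9.66 at 120 ppm. Every exposed animal lay above every control, and animal 3 at 120 ppm did so by the smallest margin. At 40 ppm Cdk1 rose 4.55-fold (log2 difference 2.18, adjusted p = 6.76e-09). At 120 ppm it rose 5.12-fold (log2 difference 2.36, adjusted p = 7.83e-10), with an SE of 0.27 for both. Ccna2, the cyclin A of S phase and early mitosis, was at 4.50, 5.03, 5.25, 5.71 and 5.18 in controls, 6.64, 6.53, 7.37, 6.51 and 7.39 at 40 ppm, and 7.60, 6.99, 5.48, 6.71 and 8.65 at 120 ppm. Of the exposed animals, only animal 3 at 120 ppm lay among the controls, and Ccna2 rose 3.38-fold and 3.87-fold. Ccnb2, a cyclin B, rose as well, by 1.52 at 40 ppm and 1.64 at 120 ppm (SE 0.27 each).

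All 6 mitotic kinases rose at both doses. Pbk, a kinase active in mitotic cells, was at 4.83, 4.57, 5.38, 5.32 and 4.92 in controls, 6.91, 6.96, 7.54, 7.06 and 7.53 at 40 ppm, and 7.95, 7.93, 5.59, 6.47 and 9.07 at 120 ppm. The groups did not overlap at either dose, and its changes were 4.58-fold and 5.28-fold. Aurka, the Aurora kinase of centrosomes and spindle poles, was at 4.18, 3.83, 4.57, 4.50 and 3.61 in controls, 5.55, 6.07, 6.65, 6.01 and 6.02 at 40 ppm, and 6.14, 6.71, 4.02, 5.68 and 7.36 at 120 ppm. Animal 3 at 120 ppm lay inside the control range, and the other exposed animals above it. Aurka rose 3.79-fold at 40 ppm and 3.59-fold at 120 ppm. Aurkb, the catalytic subunit of the chromosomal passenger complex, rose by 1.03 at 40 ppm and 1.64 at 120 ppm (SE 0.26). Plk1, the Polo kinase, rose by 1.26 and 1.50 (SE 0.23), Nek2, a centrosome kinase, by 1.45 and 1.40 (SE 0.19), and the kinase gene Melk by 1.44 and 1.78 (SE 0.21). Nek2 has 3 further probe sets: the brightest of these read 1.15 and 1.07, and a dim pair read -0.12 and -0.11 at 40 ppm.

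Among the 7 genes of the spindle checkpoint and of anaphase, 5 rose at 40 ppm and 6 at 120 ppm. Cdc20, the activator of the APC/C, was at 5.45, 5.07, 6.04, 5.64 and 5.68 in controls, 7.61, 7.89, 8.30, 7.55 and 7.92 at 40 ppm, and 8.15, 8.57, 5.35, 6.91 and 9.19 at 120 ppm. The 40 ppm animals were all at least 7.55 where the highest control was 6.04, and animal 3 at 120 ppm was again inside the control range. Its changes were 4.85-fold and 4.16-fold (SE 0.30). Ube2c, the ubiquitin-conjugating enzyme of the APC/C, was at 6.20, 5.55, 6.17, 6.36 and 6.13 in controls, 7.57, 7.76, 8.42, 7.58 and 7.80 at 40 ppm, and 8.31, 8.74, 6.92, 7.34 and 9.28 at 120 ppm. Exposed and control animals did not overlap, and Ube2c rose 3.35-fold and 4.10-fold. Of the checkpoint genes, Mad2l1 rose by 0.93 and 1.08 (SE 0.18), Bub1b by 0.83 and 0.91 (SE 0.18) and the kinase Ttk by 0.64 and 0.86 (SE 0.19). Bub1, the kinase that recruits checkpoint proteins to kinetochores, did not pass (0.76 and 0.69, SE 0.29, adjusted p = 0.12 and 0.14). Espl1, the separase, read 0.57 at 40 ppm (SE 0.18, adjusted p = 0.059), with all 5 animals above the controls, and rose by 0.91 at 120 ppm.

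Securin, the partner that holds Espl1 inactive, is encoded by Pttg1, which is no member. In WT lungs at 1 week Pttg1 was at 12.02 ± 0.12 in controls, 11.94 ± 0.10 at 40 ppm and 11.90 ± 0.13 at 120 ppm, far above the array medians, and its differences of -0.08 and -0.12 (SE 0.31) did not pass. It differed by strain: over the KO groups it lay between 8.71 and 9.57 in 25 animals and between 11.29 and 11.42 in the other 5, while TG animals lay between 11.78 and 12.16.

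Among the 5 measured genes of centromeres and kinetochores, 3 rose at 40 ppm and all 5 at 120 ppm. Spc25, a subunit of the Ndc80 complex that grips microtubules, was at 4.13, 4.50, 4.93, 5.06 and 4.61 in controls, 5.65, 5.98, 6.05, 6.03 and 6.49 at 40 ppm, and 6.52, 6.14, 5.19, 5.75 and 8.03 at 120 ppm. The groups did not overlap, and Spc25 rose 2.63-fold and 3.21-fold. Cenpf, a large kinetochore protein, was at 3.15, 3.47, 3.72, 4.10 and 4.01 in controls, 4.59, 4.48, 4.92, 4.82 and 5.65 at 40 ppm, and 5.27, 5.10, 3.64, 4.79 and 6.05 at 120 ppm. It rose 2.30-fold and 2.43-fold on this probe set, with animal 3 at 120 ppm among the controls. The other Cenpf probe sets read 0.05 and -0.08 at 40 ppm and 0.07 and 0.29 at 120 ppm, so the probe sets of this gene disagree. Cenpa, the histone H3 variant of centromeres, rose by 1.10 and 0.98 (SE 0.22). Ndc80 read 0.36 at 40 ppm (SE 0.14, adjusted p = 0.15) and rose by 0.86 at 120 ppm, and the kinetochore motor Cenpe read 0.42 (adjusted p = 0.064) and rose by 0.45.

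Of the 10 spindle and motor genes, 9 rose at each dose. Kif20a, a kinesin of the late spindle, was at 4.65, 3.67, 3.80, 4.17 and 3.48 in controls, 5.00, 5.26, 5.54, 5.15 and 5.78 at 40 ppm, and 5.95, 6.31, 5.26, 4.74 and 7.08 at 120 ppm. All exposed animals lay above the highest control, with animal 4 at 120 ppm the closest to it, and Kif20a rose 2.63-fold and 3.78-fold. Ckap2, a spindle microtubule protein, was at 4.11, 3.95, 4.27, 4.29 and 4.05 in controls, 5.67, 5.41, 5.86, 5.63 and 6.49 at 40 ppm, and 6.31, 6.10, 5.40, 4.81 and 7.19 at 120 ppm. The groups did not overlap, and it rose 3.20-fold and 3.55-fold. In this gene animal 4, not animal 3, was the lowest of the 120 ppm group. Kif22, a chromosome-arm kinesin, rose by 1.35 and 1.60, Tpx2, the activator of Aurka on the spindle, by 1.12 and 1.25, and Nusap1, a spindle microtubule protein, by 1.10 and 1.33. Aspm, a protein of the spindle poles, rose by 1.07 and 1.24, the depolymerising kinesin Kif2c by 0.74 and 0.88, the spindle motor Kif11 by 0.63 and 0.66, and Hmmr by 0.44 and 0.42.

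Dlgap5, a spindle assembly protein, had the smallest change of the set at 120 ppm. Its values were 3.35, 3.74, 3.85, 3.76 and 3.88 in controls, 3.94, 3.95, 3.96, 3.89 and 3.75 at 40 ppm, and 3.91, 4.02, 3.23, 3.66 and 4.73 at 120 ppm. The groups overlapped, and the differences of 0.19 at each dose (SE 0.15) did not pass (adjusted p = 0.59 and 0.50). Its second probe set, slightly dimmer, read 0.68 at 40 ppm and 0.83 at 120 ppm (SE 0.18), so the brightest probe set alone does not describe Dlgap5. Of the 33 further probe sets of 22 members, 15 were higher past the threshold at 40 ppm, 18 at 120 ppm, and 0 were lower. These calls come from a separate fit to all 28898 probe sets with 1 symbol. The share of those that passed is not given here, and at 120 ppm the pooled spread is too small here too.

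All 7 genes of the spindle midzone and of cytokinesis rose at both doses. Cep55, needed for the final cut between daughter cells, was at 3.50, 4.29, 4.72, 5.10 and 4.24 in controls, 6.41, 6.31, 6.64, 6.21 and 6.93 at 40 ppm, and 7.05, 6.43, 4.95, 6.07 and 8.09 at 120 ppm. It rose 4.37-fold and 4.42-fold. Birc5 (survivin), a subunit of the chromosomal passenger complex, was at 4.73, 4.34, 4.98, 5.09 and 4.69 in controls, 6.48, 6.73, 7.06, 6.57 and 7.00 at 40 ppm, and 7.13, 7.61, 4.89, 5.98 and 8.67 at 120 ppm. It rose 4.01-fold and 4.26-fold. For both genes the 40 ppm animals stood clear of the controls, and animal 3 at 120 ppm did not. Ect2, which activates RhoA at the cleavage site, rose by 1.78 and 1.76 (SE 0.25). Its partners in the centralspindlin complex, Racgap1 (1.38 and 1.47) and the kinesin Kif23 (0.67 and 0.78), rose, as did the microtubule bundler Prc1 (1.27 and 1.42) and the contractile ring scaffold Anln (1.14 and 1.28).

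Top2a, the topoisomerase that untangles sister chromatids, was at 4.76, 4.81, 5.42, 5.59 and 5.16 in controls, 6.80, 6.73, 7.15, 6.93 and 7.52 at 40 ppm, and 7.69, 7.06, 5.70, 6.39 and 8.31 at 120 ppm. It rose 3.67-fold and 3.68-fold, with no overlap between exposed and control animals. Mki67, which encodes the Ki-67 protein that coats mitotic chromosomes, was at 4.67, 4.91, 5.25, 5.37 and 4.49 in controls, 5.89, 5.82, 6.09, 6.20 and 7.28 at 40 ppm, and 6.94, 5.77, 5.61, 6.19 and 7.65 at 120 ppm. It rose 2.49-fold (adjusted p = 0.0099) and 2.81-fold (adjusted p = 0.0021), again without overlap. Foxm1, a transcription factor of late cell cycle genes, was at 3.49, 3.91, 3.67, 3.76 and 3.63 in controls, 3.68, 3.89, 3.90, 3.74 and 3.76 at 40 ppm, and 4.24, 4.36, 3.09, 3.74 and 4.49 at 120 ppm. These values are dim and overlap, and its differences of 0.10 (adjusted p = 0.83) and 0.29 (adjusted p = 0.30) did not pass. Another Foxm1 probe set read 0.35 and 0.60 (SE 0.13), and the dimmest -0.08 and -0.02.

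**Figure D2:**
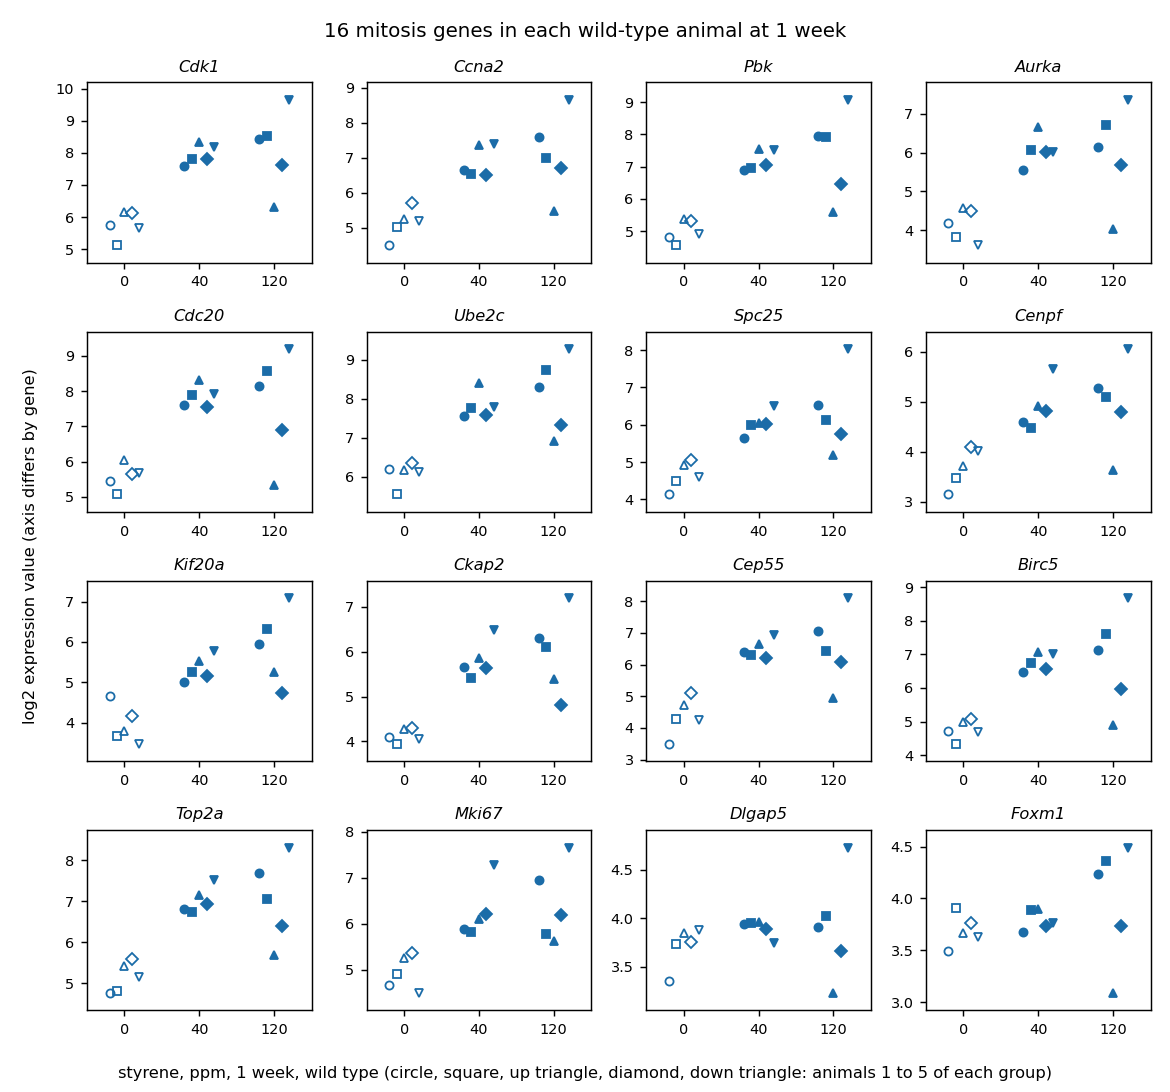
Log2 expression of 16 mitosis genes in each WT animal at 1 week, by styrene dose in ppm; marker shapes number the 5 animals within a group, and the vertical axis differs by gene. At 40 ppm all animals lie above the controls except for Dlgap5 and Foxm1, and at 120 ppm animal 5 (down triangle) is the highest in every panel.

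The doses were then compared with each other. At 1 week 34 of the 41 members read higher at 120 than at 40 ppm, with a median difference of 0.14, and 0 passed (0% of all genes). Aurkb differed by 0.61 (95% interval 0.10 to 1.12, adjusted p = 0.91) and Ndc80 by 0.50 (0.22 to 0.79, adjusted p = 0.78), the 2 members with an unadjusted p under 0.05 (5.11% of all genes had one). Both rest in part on animal 5 at 120 ppm: without it Aurkb differed by 0.37 and Ndc80 by 0.28, while without animal 4 Aurkb differed by 0.97. For Ube2c the interval was -0.22 to 0.81. These intervals rest on the pooled spread, which is narrower than that of the 120 ppm group, and they do not show that the doses act alike. At 4 weeks the median difference was -0.16, 32 members read lower at 120 ppm, and 0 passed (0% of all genes), nor did any have an unadjusted p under 0.05 (2.14% of all genes did). Without animal 4 of the 120 ppm group, 1 member passed at 1 week (share of all genes not given here).

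In KO lungs at 1 week 0 members passed at 40 ppm and 0 at 120 ppm, as did 0% of all genes at each dose. The median over the members was 0.26 at 40 ppm, with 38 of 41 positive, and 0.01 at 120 ppm, with 22 positive and 0 members at an unadjusted limma p under 0.05 (5.15% of all genes). Cdk1 (0.53, SE 0.27), Aurka (0.61, SE 0.26) and Spc25 (0.50, SE 0.24) were the 3 members with an unadjusted p under 0.05 in KO lungs at 40 ppm (adjusted p = 1.00 each), where 3.57% of all genes had one. The 5 KO animals at 40 ppm had member means of -0.14, -0.28, -0.22, 0.15 and 0.53. Animal 5 was the highest of them in 33 of 41 members. Pttg1 was at 9.32, 11.42, 11.36, 9.08 and 9.29 in these 5 animals. The high values were in animals 2 and 3, which had the lowest member means, and a link was not tested. At 120 ppm the KO means lay between -0.30 and -0.21, the narrowest range of the 18 groups.

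TG lungs gave 0 members past the threshold at 40 ppm (0% of all genes) and 0 at 120 ppm (0.0468% of all genes) at 1 week. The member medians were -0.001 and -0.15, and 33 of 41 members read lower at 120 ppm. Group means were -0.19 ± 0.18 in TG controls, -0.19 ± 0.09 at 40 ppm and -0.32 ± 0.06 at 120 ppm. At each dose 1 member had an unadjusted limma p under 0.05, as did 4.43% of all genes at 40 ppm and 9.26% at 120 ppm. Birc5 had the largest difference of the set at 120 ppm, -0.53, and it did not pass.

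The difference between strains was tested itself, as the change in KO or TG minus the change in WT. At 120 ppm and 1 week 32 of 41 members changed less in KO than in WT (78%, against 1.76% of all genes lower in this comparison) and 32 changed less in TG than in WT (78%, against 3.42%). Medians were -1.40 and -1.50. At 40 ppm 16 were lower in KO (39%, against 1.05%) and 27 in TG (65.9%, against 1.39%), with medians of -0.96 and -1.21. Cdk1 differed by -2.58 (SE 0.38, adjusted p = 4.29e-06) between KO and WT and by -2.78 (adjusted p = 5.04e-07) between TG and WT at 120 ppm. At 40 ppm Cdk1 differed by -1.65 (adjusted p = 0.0082) and -2.29 (adjusted p = 5.53e-05). Mki67 did not pass in any of the 4 (adjusted p between 0.054 and 0.50). The KO and TG tests share the same WT animals.

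These strain tests carry the spread of the WT groups. Fitted on only the arrays compared, 0 members passed between KO and WT at 120 ppm and 1 between TG and WT, and calls over all genes fell as well, to 0.0351% and 0.135%. With WT animals 3 and 5 left out of the fit to all arrays, 31 and 30 passed, beside 2.36% and 5.16% of all genes. The KO count at 40 ppm was the least steady. It was 7 without WT control animal 2, 8 without WT animal 3 or without KO animal 2 at 40 ppm, 9 without WT animal 5 and 10 without KO animal 3 at 40 ppm. The TG count at 40 ppm was 18 without TG control animal 5, whose array had a low weight. Shares of all genes passing without 1 animal are not given here. A fall particular to the members therefore cannot be told from a general one.

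**Figure D3:**
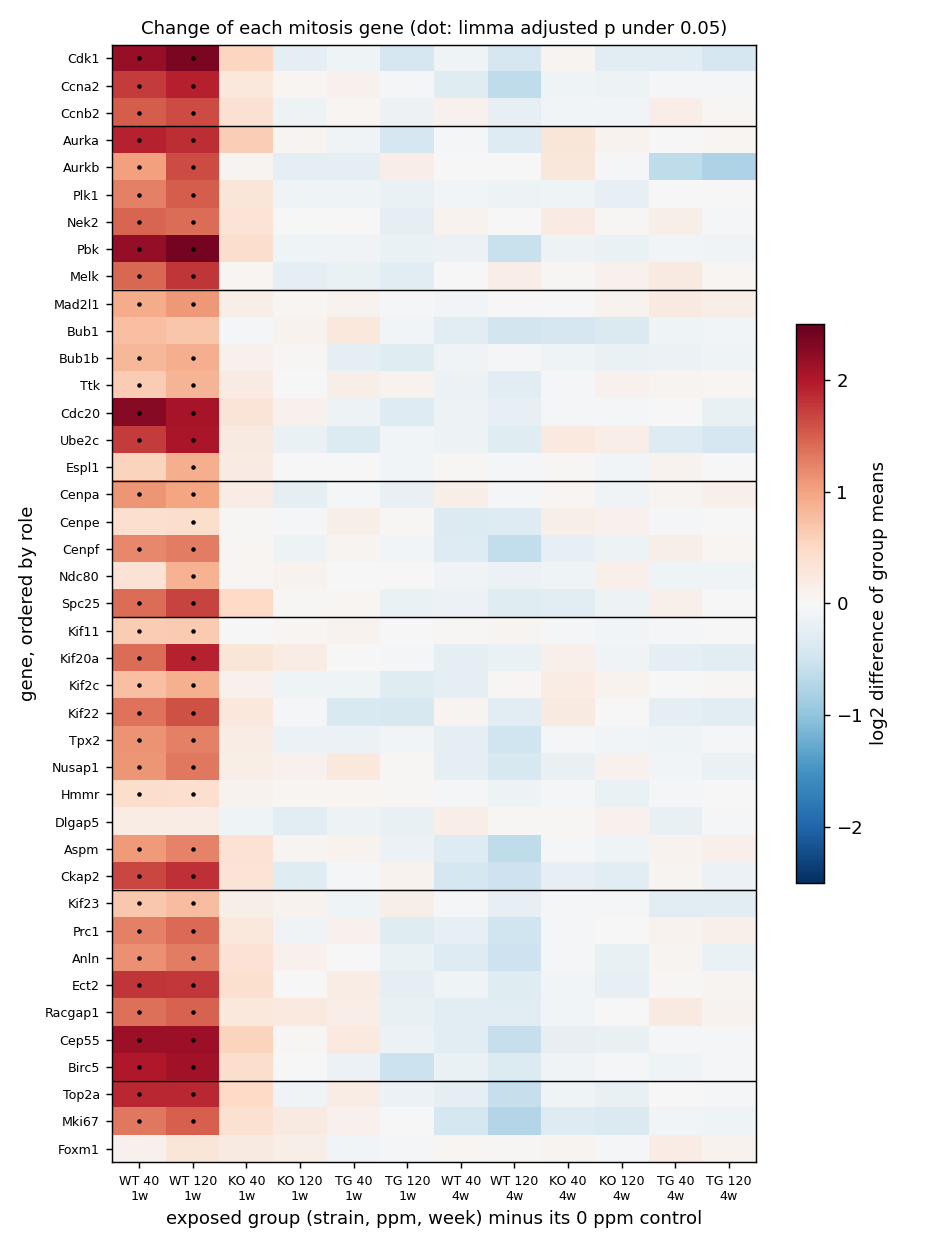
Change of each of 41 mitosis genes (rows, ordered by role, lines between roles) in the 12 exposed groups against their own 0 ppm control (columns); colour gives the log2 difference of group means from -2.5 to 2.5 and a dot marks a limma adjusted p under 0.05. Dots occur in the WT columns at 1 week, 35 at 40 ppm and 38 at 120 ppm, and in no other column.

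After 4 weeks 0 members passed in WT lungs at 40 ppm (0.152% of all genes did) or at 120 ppm (0.439%). The member medians were -0.13 and -0.29 where the medians over all genes were 0.01 and 0.008, and 33 of 41 members read lower at each dose. Both doses use the same 5 control animals, whose member means were 0.09 ± 0.22. At 120 ppm the mean was -0.19 ± 0.10. At this dose and time 12 members had an unadjusted p under 0.05, all of them lower, with adjusted p-values of 0.46 or more, where 5.93% of all genes had one. At 40 ppm 1 member did, against 4.73% of all genes. Fitted on only the 10 arrays compared, 1 member passed at 120 ppm (0.433% of all genes). In 7 members all 5 animals at 120 ppm lay below all 5 controls (17.1%, against 0.965% of all genes). Pbk was at 5.76, 5.25, 5.17, 5.24 and 5.79 in 4-week controls and at 4.87, 4.90, 4.86, 4.80 and 4.95 at 120 ppm. Ccna2 was at 6.13, 5.41, 5.57, 5.63 and 6.16 in controls and at 5.15, 4.96, 5.25, 5.21 and 5.19 at 120 ppm. Both read lower without overlap, Pbk by -0.57 (SE 0.25, adjusted p = 0.74) and Ccna2 by -0.63 (SE 0.26, adjusted p = 0.64). The other members without overlap were Tpx2 (-0.49), Anln (-0.53), Aspm (-0.64), Cenpf (-0.62) and Birc5 (-0.35). These are values of the brightest probe set. Of the 7 genes, 5 have further, dimmer probe sets, which lay closer to 0: Ccna2 -0.31, Tpx2 -0.18, Anln -0.13, Aspm -0.12 and -0.05, and Cenpf 0.10 and -0.06. The lowest, Mki67 at -0.73 (SE 0.34, adjusted p = 0.79), overlapped with its controls.

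The change at 4 weeks was set against that at 1 week in WT lungs. At 40 ppm 27 of 41 members changed less at 4 weeks than at 1 week (65.9%, against 0.503% of all genes), and at 120 ppm 34 did (82.9%, against 0.749%). Medians were -1.40 and -1.75. Pbk differed by -2.97 between the times at 120 ppm (SE 0.36, adjusted p = 5.95e-08) and Cdk1 by -2.77 (SE 0.38). Fitted on only the arrays compared, 0 members and 0% of all genes passed at 120 ppm, and with WT animals 3 and 5 of the 1-week group left out, 34 members and 1.01% of all genes did. The animals of the 2 times are different mice with their own controls.

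In KO and TG lungs at 4 weeks 0 members passed at either dose, with medians between -0.06 and -0.003. Animal 1 of the KO group at 40 ppm, whose array had the lowest weight of the 90 (0.0897), had the lowest member mean of its group (-0.32). Leaving out any 1 animal still gave 0 members for KO at 40 ppm. At an unadjusted limma p under 0.05 there were 0 in KO and 1 in TG at each dose, where the shares of all genes were 3.14% and 2.45% in KO and 7.48% and 5.61% in TG. Shares of all genes past the adjusted threshold were 0% in KO and 0% in TG at 40 ppm, and 0.0234% in KO and 0.0117% in TG at 120 ppm. Aurkb had the largest differences of the set in TG lungs, -0.64 at 40 ppm and -0.77 at 120 ppm (SE 0.26), and did not pass (adjusted p = 0.53 and 0.60). TG control animal 3 carries much of this: at 5.48 it lay above the other controls (3.59 to 4.05), its array had a weight of 0.309, and without it the differences were -0.33 and -0.46. Between strains, 0 members differed in their 4-week change, where 0.0234% of all genes did for KO and 0.0117% for TG at 40 ppm, and 0.0175% and 0.0292% at 120 ppm. The members with an unadjusted limma p under 0.05 were 1 for KO and 0 for TG at 40 ppm, and 1 and 3 at 120 ppm. Over all genes the shares were 2.498% and 5.71% at 40 ppm, and 2.48% and 4.08% at 120 ppm.

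Among unexposed mice, with both times averaged, 0 members differed between KO and WT (0.275% of all genes) or between TG and WT (0.287%), with medians of -0.14 and -0.12 and 1 and 2 members at an unadjusted limma p under 0.05 (6.41% and 8.92% of all genes). With the strains averaged, 9 members were higher in 4-week than in 1-week controls (22%, against 11.3% of all genes that were higher). They were Mki67 (1.71-fold, 0.77, SE 0.20), Cep55 (1.61-fold), Bub1 (1.55-fold), Ckap2, Ccna2, Top2a, Nusap1, Aspm and Anln, and 0 were lower. The count was 4 without WT control animal 1 at 1 week or without WT control animal 5 at 4 weeks. It was 5 without KO animal 3, TG animal 3 or TG animal 5 at 1 week. It was also 5 without WT animal 1, KO animal 2, TG animal 1 or TG animal 2 at 4 weeks. For these fits the share of all genes is not given here.

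Members varied together from animal to animal. Over the 820 pairs of members, the median correlation across the 90 arrays was 0.74. On deviations from group means it was 0.50, with 796 pairs positive. These correlations share arrays and normalization and are given as description. Over the 18 group means, the non-members whose pattern was most like the members' mean were Stil (Pearson r = 0.990), Clspn, Spag5, Dtl, Rrm2, Cdca8, Cdca3, Ckap2l, Cdca5 and Ube2t (0.976). Of the 100 genes most like it, 33 were members, 23 were on a list of other mitosis genes, 18 on a list of DNA replication genes and 26 on neither list. Members enter the mean they are compared with, so their count is built in. The pattern rests mostly on the exposed WT groups at 1 week, so a gene raised there scores high.

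The neighbouring parts of the cell cycle were read from further lists. Of all genes in WT lungs at 1 week, 3.82% rose at 40 ppm and 3.94% at 120 ppm, while 146 and 487 of 17097 fell. In WT lungs at 1 week, of 55 other mitosis genes 37 rose at 40 ppm and 42 at 120 ppm, with medians of 0.69 and 0.84. They were led by Cdca3 (4.09-fold at 120 ppm), Cdca5 (4.00-fold), Spc24 (3.55-fold) and Cdca2 (3.31-fold). Of the 55 genes 41 were dim over the arrays as a whole, including all those named here. Among genes named next, Tk1, Cdc6, Dtl, Ccne1, Ccne2, E2f7 and E2f8 were dim too. Of 37 DNA replication genes 28 and 34 rose (medians 0.75 and 0.92), led by thymidine kinase Tk1 (4.27-fold at 120 ppm), the origin-licensing factor Cdc6 (3.38-fold), Uhrf1 (3.32-fold) and Dtl (3.29-fold). Of 8 G1 cyclins and their kinases 3 and 4 rose, the cyclins Ccne1 (2.19-fold at 120 ppm), Ccne2 (2.02-fold) and Ccnd1 (1.29-fold), and at 120 ppm also Cdk4 (1.28-fold). Of 13 E2f, Myb and MuvB regulators 3 rose at each dose, the repressors E2f7 (2.62-fold at 120 ppm) and E2f8 (2.06-fold) and Tfdp1 (1.27-fold). Of the 11 core APC/C subunits 0 changed at either dose, with medians of 0.04. Of 12 inhibitors and antiproliferative genes, the Cdk1-inhibiting kinase Wee1 rose (1.65-fold at 120 ppm), while the Cdk inhibitor Cdkn1a, which encodes p21, and Btg2 fell, by 0.95 and 0.61 on the log2 scale. At 4 weeks 0 genes of these lists passed, apart from 1 of the 12 inhibitor genes, which was lower at 120 ppm.

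**Figure D4:**
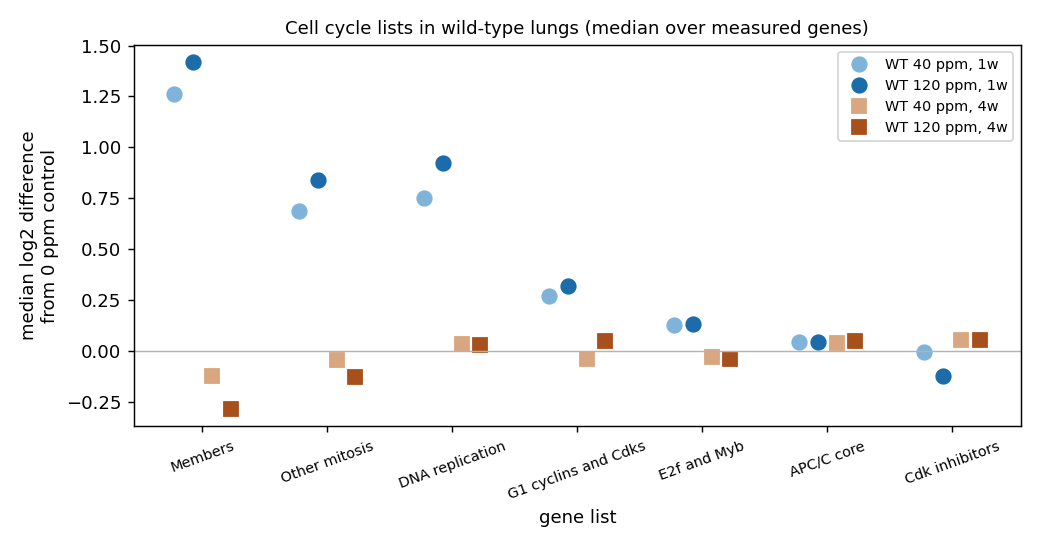
Median log2 difference from the 0 ppm control over the measured genes of 7 lists in WT lungs, for 40 and 120 ppm at 1 week (circles) and 4 weeks (squares). At 1 week the members (1.26 and 1.42), other mitosis genes and DNA replication genes stand above the other lists, and the core APC/C subunits stay at 0.04.

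Markers of cell types that the sample could hold were read alongside. Of 9 thymocyte markers 0 changed in WT lungs at either dose, and 8 of the 9 were dim, including Rag1, Rag2, Dntt and Ptcra. Their summed level lay between 34.5 and 35.4 in controls, 33.0 and 35.2 at 40 ppm, and 33.5 and 35.8 at 120 ppm. Of 6 germinal centre markers 0 rose, while Bcl6 fell at both doses and Fas at 40 ppm. Of 9 B cell and 10 T and NK cell markers 0 changed. Of 9 monocyte and macrophage markers 0 passed, while their summed level averaged 67.3 in controls (64.8 to 69.9), 69.8 at 40 ppm (68.6 to 71.4) and 69.7 at 120 ppm (65.5 to 72.1). Of 5 plasma cell markers 0 passed, and their sums were lower, between 31.8 and 32.9 in controls, 30.3 and 31.1 at 40 ppm without overlap, and 29.9 and 32.1 at 120 ppm. Of 8 ciliated cell markers 0 passed, with sums of 64.8 to 69.3, 67.2 to 70.3, and 65.1 to 71.1. Single markers of other types passed. Of 13 endothelial markers 2 fell at 40 ppm and 6 at 120 ppm, among them Kdr (-0.47), Cldn5 (-0.50) and Pecam1 (-0.37), and their summed level lay between 126.6 and 130.6 in controls, 122.6 and 126.0 at 40 ppm, and 121.2 and 126.4 at 120 ppm. Of 10 alveolar macrophage markers Ctsk rose at both doses (1.25 and 1.26), and Marco and Car4 at 120 ppm, with sums of 80.2 to 85.5, 84.6 to 88.7, and 85.2 to 92.9. Lcn2 and Mmp8, of 10 neutrophil markers, rose at both doses, with sums of 63.5 to 69.1, 66.6 to 69.6, and 63.2 to 73.3. Of 9 alveolar type II markers 4 rose at 40 ppm and 2 at 120 ppm, Muc1 the most (0.71 and 0.42), with sums of 94.9 to 98.0, 98.4 to 99.2, and 96.5 to 99.3. Of 10 fibroblast markers Col1a1 (0.74 and 0.79) and Mfap4 (0.83 and 0.71) rose at both doses and Pdgfra fell, with sums of 92.0 to 93.9, 93.4 to 95.7, and 92.5 to 96.1. Of 10 club cell markers Gsto1 rose at both doses, and Cyp2f2 fell by 0.33 at 40 ppm and 0.28 at 120 ppm. Aldh1a1 of the club cell list and Hopx of 8 alveolar type I markers fell at 120 ppm, Tfrc of 8 erythroid markers rose at 40 ppm, and of 6 basal cell markers, all dim, 0 passed.

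Within the 120 ppm group, the animals at the ends of the mitosis range differed in these sums too. Animal 5, with the highest mitosis values, had the highest sum of alveolar macrophage markers (92.9) and neutrophil markers (73.3) and the lowest of endothelial markers (121.2). Its sums were also the lowest for plasma cell (29.9), fibroblast (92.5) and ciliated cell markers (65.1). Animal 3, with the lowest mitosis values, had the lowest sums of alveolar macrophage (85.2), neutrophil (63.2) and monocyte and macrophage markers (65.5) and the highest of plasma cell markers (32.1), at 122.9 for endothelial markers. The array of animal 3 had the lowest median of the 90 (4.42) and a weight of 0.135. Its sums of APC/C core subunits (90.2) and of inhibitor and antiproliferative genes (94.5) were also the lowest of the group. Its sum of club cell markers was the highest (121.5). The part of these cells, or of array quality, in the mitosis result was not tested.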

How the data were processed

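Whole-lung RNA of 90 animals was hybridised to 1 array each. The authors deposited 1 log2 value per probe set and array, and the submitters' processing notes name RMA and Partek, without versions. Of 45141 probe sets, 28898 carry 1 gene symbol in the platform annotation, and the brightest per gene gave 17097 genes. Groups came from the sample labels.

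Limma 3.58.1 in R 4.3.3 was fitted to the 18 group means over 90 arrays (72 residual degrees of freedom), with 27 comparisons, and p-values were adjusted by Benjamini-Hochberg over all genes. The fit was also run on simulated data, drawn with 1 spread per gene in all groups. That run cannot check the fit for the uneven WT group at 120 ppm and 1 week. P-values rest on the spread between animals within groups, pooled per gene over the 18 groups. The labels call these animals biological replicates.

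The members and all gene lists were chosen with earlier results of these data known. Values in every animal are given for up to 16 members: in each role list the 2 with the largest change in WT at 120 ppm and 1 week, and the 2 members with the smallest. Non-members named are up to 4 per pathway list by size of that change, Pttg1, the 10 most alike, and markers.

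Alternatives were repeated quantile normalization, dim genes left out, the median over probe sets, only the arrays compared, an intensity trend, weights per array, a replicate block, and leaving out single animals; leaving out WT animals 3 and 5 at 120 ppm and 1 week was added after the data were seen. The number of arrays limits the precision.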

Additional observations from a re-analysis of the deposited data

Results flagged for a closer look

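For the members' mean and named members, 66 groups of 5 animals were examined for an animal far from the others, and 6 had one, where about 5% of groups would by chance. In the members' mean, the lowest KO control at 4 weeks (-0.34) and the highest TG animal at 40 ppm and 4 weeks (0.10) stood apart. In WT mice at 1 week, Ube2c was apart in the lowest control (5.55) and in the highest 40 ppm animal (8.42), Mki67 in the highest 40 ppm animal (7.28) and Dlgap5 in the lowest control (3.35).

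The change of the mitosis genes differed between groups by a test of the difference itself. Of 41 members, 16 changed less in KO than in WT at 40 ppm and 1 week (1.05% of all genes did). At 120 ppm 32 did (1.76% of all genes). For TG against WT the counts were 27 at 40 ppm (1.39%) and 32 at 120 ppm (3.42%). In WT, 27 changed less at 4 weeks than at 1 week at 40 ppm (0.503%), and 34 at 120 ppm (0.749%). With only the arrays compared, the 120 ppm counts were 0 for KO, 1 for TG and 0 between the times.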

How the results depend on the processing

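With dim genes left out, 18 members were tested, and the counts passing were 17 (WT, 40 ppm, 1 week), 17 (WT, 120 ppm, 1 week), 9 and 16 (KO against WT at 40 and 120 ppm), 14 and 17 (TG against WT), and 11 and 15 (4 weeks against 1 week at 40 and 120 ppm), with a WT median at 40 ppm of 1.49; fewer members were tested by construction. The mean behind this limit includes the exposed WT arrays, and Birc5 and Ect2 passed it only through them, so these counts and this median are no separate support; of the 16 other members, 15 rose at each dose in WT at 1 week in the fit to all genes, a count added after the data were seen. With only the arrays compared, 1 member passed in WT at 120 ppm and 1 week (0.211% of all genes) and 1 at 4 weeks (0.433%). At 120 ppm and 1 week 0 passed for KO against WT (0.0351%) and 1 for TG against WT (0.135%). For 4 weeks against 1 week at 120 ppm 0 passed (0%). At 40 ppm such fits gave 34 members in WT at 1 week (5.51% of all genes). They gave 20 for KO against WT (1.42%), 29 for TG against WT (1.41%) and 31 for 4 weeks against 1 week (0.988%). All these fits have fewer animals to estimate the spread, and why they differ by dose was not tested. With the median over probe sets, the WT median at 40 ppm and 1 week was 1.00, the count in unexposed mice, 4 weeks against 1, was 5, and Cenpf at 40 ppm (0.0286), Dlgap5 at 120 ppm (-0.0182) and Foxm1 at 120 ppm (-0.0131) at 4 weeks changed sign; the cause was not tested. Single further probe sets in WT at 1 week read the other way for Cenpf (-0.0831), Foxm1 (-0.0808) and Nek2 (-0.118 and -0.115) at 40 ppm, and for Foxm1 (-0.0161) and Nek2 (-0.106) at 120 ppm. Leaving out 1 animal gave 4 to 10 members for unexposed mice and 7 to 17 for KO against WT at 40 ppm. For 120 against 40 ppm in WT at 1 week it gave 0 to 1. Shares of all genes are not given for fits without a single animal. The fit with the replicate block gave 35 members in WT at 40 ppm and 38 at 120 ppm and 33 for KO against WT at 120 ppm, and moved no count of members by over 1.5 times. Deviations from group means correlated at 0.06 on average between same-numbered animals, with 344 of 765 pairs over 0.1 (45.0%), and at -0.01 between animals of different number, with 915 of 3060 over 0.1 (29.9%). Of the 90 arrays, 41 were closest on average to their own number, with 5 numbers to choose from. This is a hint from the data and not from the design. The labels name nothing shared by same-numbered animals, so they were not taken as paired. What the animals of a number may share was not tested.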
